A study of Mus musculus with 6 samples.

Results

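The 6 genes that turn peptide precursors into hormones and neuropeptides, followed here across hypothalamic neurons of the mouse, are Pcsk1 and Pcsk2, which encode the prohormone convertases PC1/3 and PC2, Pcsk1n, Scg5, Cpe and Pam. They make up 6 of the 27514 genes measured in all of the pools. The genes were chosen by name as the peptide maturation set, and measured values of these same nuclei entered that choice. The rule does not say which values. Some of their responses to rapamycin were known when the set was chosen from these data, so treatment values are given as a description and not as independent evidence.

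Hypothalamic nuclei were enriched for NeuN, a protein of neuronal nuclei, by sorting and then captured with 3' droplet chemistry, in which each unique molecular identifier (UMI) counts 1 captured transcript. Of the 3 pools, 1 came from chow-fed mice, 1 from diet-induced-obese (DIO) mice, whose label also reads hfd, and 1 from chow-fed ob/ob mice (OB), which lack functional leptin. Every pool combined mice given rapamycin, an inhibitor of the growth-regulating kinase complex mTORC1, with mice given vehicle, and an antibody-borne hashtag marked which treatment a nucleus came from. The 6 hashtag sums (3 pools, 2 tags) are the samples here: the 2 sums of a pool share a library but not mice. Strain, sex, age, dose, days of treatment and the number of mice behind a hashtag are not given in the sources used here. All p-values therefore rest on the spread between these sums, which may be technical. The edgeR test used below estimates that spread partly from all genes of a fit together. A small p-value therefore does not show that the sums or pools of 1 gene lie close together.

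Most neuropeptides are made as inactive precursors that enter dense core granules. There PC1/3 and PC2 cut at pairs of basic residues, carboxypeptidase E (Cpe) trims the basic residues left behind, and peptidylglycine alpha-amidating monooxygenase (Pam) amidates the new end. Pcsk1n encodes proSAAS, an inhibitor of PC1/3, and Scg5 encodes 7B2, a chaperone and inhibitor of PC2. Which convertase a neuron holds decides its products: PC1/3 cuts pro-opiomelanocortin to corticotropin, and PC2 carries the cut on towards alpha-melanocyte-stimulating hormone.

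The promoters of Pcsk1, Pcsk2 and Pcsk1n are shown because the convertases differed most between neuron classes and Pcsk1n most between treatments. Each sequence is the 250 bases before the start in RefSeq (GRCm38.p6), 5′ to 3′ on the gene's strand, and capitals mark TGACG or its reverse complement CGTCA, the half-site of the cyclic AMP response element.
Pcsk1, chr13:75089607-75089856 on the plus strand: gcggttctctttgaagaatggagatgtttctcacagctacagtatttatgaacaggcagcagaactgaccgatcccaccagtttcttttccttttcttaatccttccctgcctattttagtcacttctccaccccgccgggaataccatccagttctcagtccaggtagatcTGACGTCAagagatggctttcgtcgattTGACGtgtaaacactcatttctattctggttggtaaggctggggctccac
Pcsk2, chr2:143545883-143546132 on the plus strand: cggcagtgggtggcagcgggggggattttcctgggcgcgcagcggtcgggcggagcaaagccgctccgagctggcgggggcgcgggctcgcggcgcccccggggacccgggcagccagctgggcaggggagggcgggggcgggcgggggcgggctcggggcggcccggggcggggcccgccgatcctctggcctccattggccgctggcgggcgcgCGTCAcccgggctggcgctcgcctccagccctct
Pcsk1n, chrX:7919572-7919821 on the plus strand: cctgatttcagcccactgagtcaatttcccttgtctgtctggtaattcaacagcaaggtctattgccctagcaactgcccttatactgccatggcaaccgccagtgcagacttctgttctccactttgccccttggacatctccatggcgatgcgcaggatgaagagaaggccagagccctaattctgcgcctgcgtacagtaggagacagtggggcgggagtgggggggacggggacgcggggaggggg
The Pcsk1 window held 3 half-sites, at 78, 75 and 50 bases before the start, and the first pair overlap as the full palindrome TGACGTCA. That palindrome was in 506 of 32544 promoters of this length (1.55%), and at least 1 half-site was in 5808 (17.8%), both strands searched. The Pcsk2 window held 1 half-site, 34 bases before the start, and no palindrome, and the Pcsk1n window held neither. GC content was 46.8% for Pcsk1, 82.4% for Pcsk2 and 57.6% for Pcsk1n. The GC box core GGGCGG, present in 33.0% of promoters, occurred 7 times for Pcsk2, 1 time for Pcsk1n and not at all in the Pcsk1 window. The start that the table gives for Pcsk1 lies inside the annotated gene span (chr13:75089420-75134861). These matches describe letters in a window and not bound sites.

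The chow, DIO and OB pools held 10853, 11405 and 12284 barcodes with medians of 5826, 5572 and 2805 UMIs. Neuronal marker UMIs classed 94.6% of chow, 93.8% of DIO and 74.9% of OB nuclei as neurons, and hashtag calls placed 1541 to 5725 neurons in each sum, with totals of 6227939 to 34124794 UMIs. In OB, 30.4% of nuclei had no hashtag call, and the OB vehicle sum was the smallest. That sum also stood apart in its Pomc UMIs: its neurons held 704 Pomc UMIs per 1000000 UMIs (CPM) against 13.7 to 56.6 in the other sums, and its 11 pituitary markers summed to 60.1 CPM against 2.63 to 16.04. Summed CPM of 7 astrocyte markers in neurons was 57.9 to 66.2 in chow and DIO and 94.0 to 120 in OB. Pools shared 31 to 38 barcode sequences, pair by pair.

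Across all neurons, every member was detected in each sum. Pcsk1 averaged 42.8 ± 8.28 CPM (SD, n = 6 sums), Pcsk2 460 ± 44.6, Pcsk1n 60.3 ± 20.4, Cpe 178 ± 17.2, Pam 572 ± 24.1 and Scg5 184 ± 4.85. Levels of different genes are not ranked here, since UMI yield in nuclei differs by gene. Scg5 kept within 180 to 193 CPM over the sums, whereas Pcsk1n ran from 34.1 to 96.8. Glutamatergic neurons (with Slc17a6 UMIs) held more of both convertases than GABAergic neurons (with Gad1, Gad2 or Slc32a1 UMIs). Pcsk1 was at 28.7 to 56.8 CPM in the former and 19.6 to 36.6 in the latter, Pcsk2 at 473 to 609 against 251 to 368, and Pam at 562 to 852 against 422 to 480. The ranges of Pcsk2 and Pam did not overlap and those of Pcsk1 did, and no test was run on this contrast. Mean levels of the other members lay close together: Pcsk1n 54.5 against 56.7, Cpe 172 against 182 and Scg5 177 against 186 CPM.

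Neuron classes were set by marker UMIs, 10 or more for Avp, Oxt, Hcrt and Pmch and 1 to 3 for the rest. Each class was compared with the other neurons of the same sums by edgeR's quasi-likelihood test with the sum as a block, in 16 classes with at least 5 nuclei in at least 4 sums. All 6 genes were tested in every fit, and 26 of 96 tests passed an adjusted p of at most 0.05 (27.1%), 15 higher and 11 lower in the class. Over all genes in these fits, 7.89% of 220057 tests passed, 3.1% higher and 4.79% lower. Adjusting over all fits together also gave 26, with Pam in Nr5a1 nuclei gained (edgeR adjusted p = 0.039) and Pam in Hdc nuclei lost (0.14). Nuclei of most classes were deeper than other neurons (class medians 4715 to 9429.5 UMIs against about 5128 to 5216). After nuclei were thinned to 2000 UMIs, and those with fewer left out, 17 of the 96 tests passed. That left out 1303 of 9204 OB neurons, against 24 of 10267 in chow and 56 of 10698 in DIO.

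**Figure D1:**
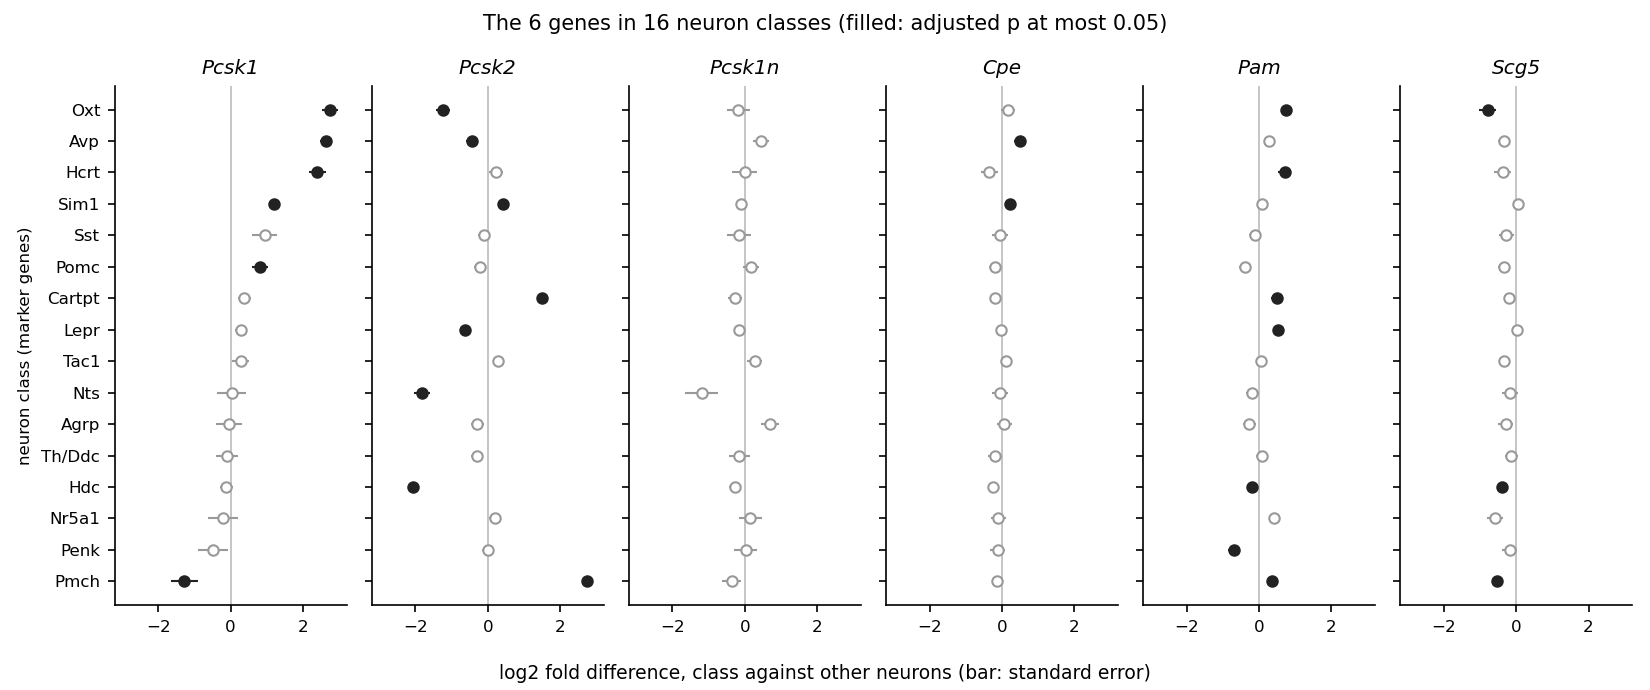
Log2 difference (x axis) of each of the 6 genes between a neuron class and the other neurons of the same sums, for 16 classes (y axis), as point and standard error, filled where the adjusted p was at most 0.05. Pcsk1 stands out in the Oxt, Avp and Hcrt classes and Pcsk2 in Pmch and Cartpt, and Pcsk2 is lowest in Hdc and Nts.

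Pcsk1 was highest in the neurons of the posterior pituitary hormones and orexin. In the Oxt class (oxytocin, 42 nuclei) it was 396 and 229 CPM in the chow rapamycin and vehicle sums, 184 in DIO rapamycin and 285 in OB rapamycin, against 32.9 to 40.3 in other neurons. The log2 ratio was 2.74 (SE 0.21, edgeR adjusted p = 2.4e-34, higher in 4 of 4 sums), where 6.77% of all genes passed in either direction. Avp nuclei (vasopressin, 96 nuclei) held a median of 252 CPM, from 223 to 371, against 32.1 to 51.8 in other neurons. This was a log2 ratio of 2.63 (SE 0.17, edgeR adjusted p = 1.0e-52, 6 of 6 sums), with 13% of all genes called. The Hcrt class (orexin, 48 nuclei) had 281 CPM in chow rapamycin, 273 and 227 in DIO rapamycin and vehicle, and 278 and 294 in OB. Its log2 ratio was 2.39 (SE 0.23, edgeR adjusted p = 2.9e-22, 5 of 5 sums), with 9.35% of genes called. In each of these 3 classes every sum lay above the range of other neurons.

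Sim1, a transcription factor of the paraventricular and supraoptic lineages, marked a wider class of 1298 nuclei in which Pcsk1 was 76.8 to 131 CPM (median 88.2) against 31.6 to 49.7. The log2 ratio was 1.21 (SE 0.07, edgeR adjusted p = 3.3e-16, 6 of 6 sums; 15% of genes called). This class contained 58 of the 96 Avp nuclei and 30 of the 42 Oxt nuclei. With nuclei of more than 1 class left out, the Sim1 ratio was still 0.93 (edgeR adjusted p = 4.1e-11). Pmch neurons (melanin-concentrating hormone, 86 nuclei) went the other way, with Pcsk1 at 20.9 and 7.85 CPM in chow and 9.63 and 32.4 in DIO, below the 38.1 to 52.4 of other neurons. The log2 ratio was -1.28 (SE 0.36, edgeR adjusted p = 0.0054, lower in 4 of 4 sums; 11.2% of genes called) and rests on 14 UMIs. It did not pass without the chow pool, without the DIO pool, on thinned nuclei or in nuclei of 1 class only.

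Pcsk2 was highest in Pmch neurons, the class with the lowest Pcsk1. There it reached 2897 and 3008 CPM in chow rapamycin and vehicle and 2239 and 2924 in DIO, against 398 to 474 in other neurons. The log2 ratio was 2.73 (SE 0.10, edgeR adjusted p = 5.7e-153, 4 of 4 sums). The Cartpt class, 241 nuclei with 3 or more UMIs of the CART precursor, followed with 625.5 to 2855 CPM (median 1512) against 402 to 523. Its log2 ratio was 1.51 (SE 0.15, edgeR adjusted p = 1.5e-21, 6 of 6 sums; 8.21% of genes called). Of the Pmch nuclei 40.7% were also Cartpt nuclei, which is 14.5% of the Cartpt class. Without nuclei of more than 1 class, Cartpt kept a ratio of 0.60 (edgeR adjusted p = 7.2e-04) and Pmch one of 2.28. Sim1 neurons held slightly more Pcsk2, 470 to 654 CPM against 399 to 532 (log2 ratio 0.43, SE 0.05, edgeR adjusted p = 1.9e-07, higher in 5 of 6 sums).

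Histaminergic neurons, marked by Hdc, the histamine-forming decarboxylase, had little Pcsk2. Their 233 nuclei held 91.2 and 80.5 CPM in chow rapamycin and vehicle, 123 and 157 for DIO, 120 and 51.8 for OB, all under the 413 of the lowest sum of other neurons. The log2 ratio was -2.05 (SE 0.10, edgeR adjusted p = 1.1e-47, lower in 6 of 6 sums), in a class where 31.9% of all genes passed. Nts neurons (neurotensin, 40 nuclei) had 140 and 71.3 CPM in chow and 71.0 and 330 in DIO, a log2 ratio of -1.82 (SE 0.23, edgeR adjusted p = 1.4e-12; 2.09% of genes called). In the Oxt class Pcsk2 was 145, 123, 378 and 224 CPM over its 4 sums, all under the other neurons' 411 to 462. That log2 ratio was -1.24 (SE 0.19, edgeR adjusted p = 8.2e-09) and did not pass without the chow pool. In Avp nuclei, Pcsk2 was lower in 5 of 6 sums, 222 to 577 CPM (log2 ratio -0.45, SE 0.15, edgeR adjusted p = 0.027). It did not pass without DIO, without OB, in DESeq2 or with DESeq2 size factors.

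**Figure D2:**
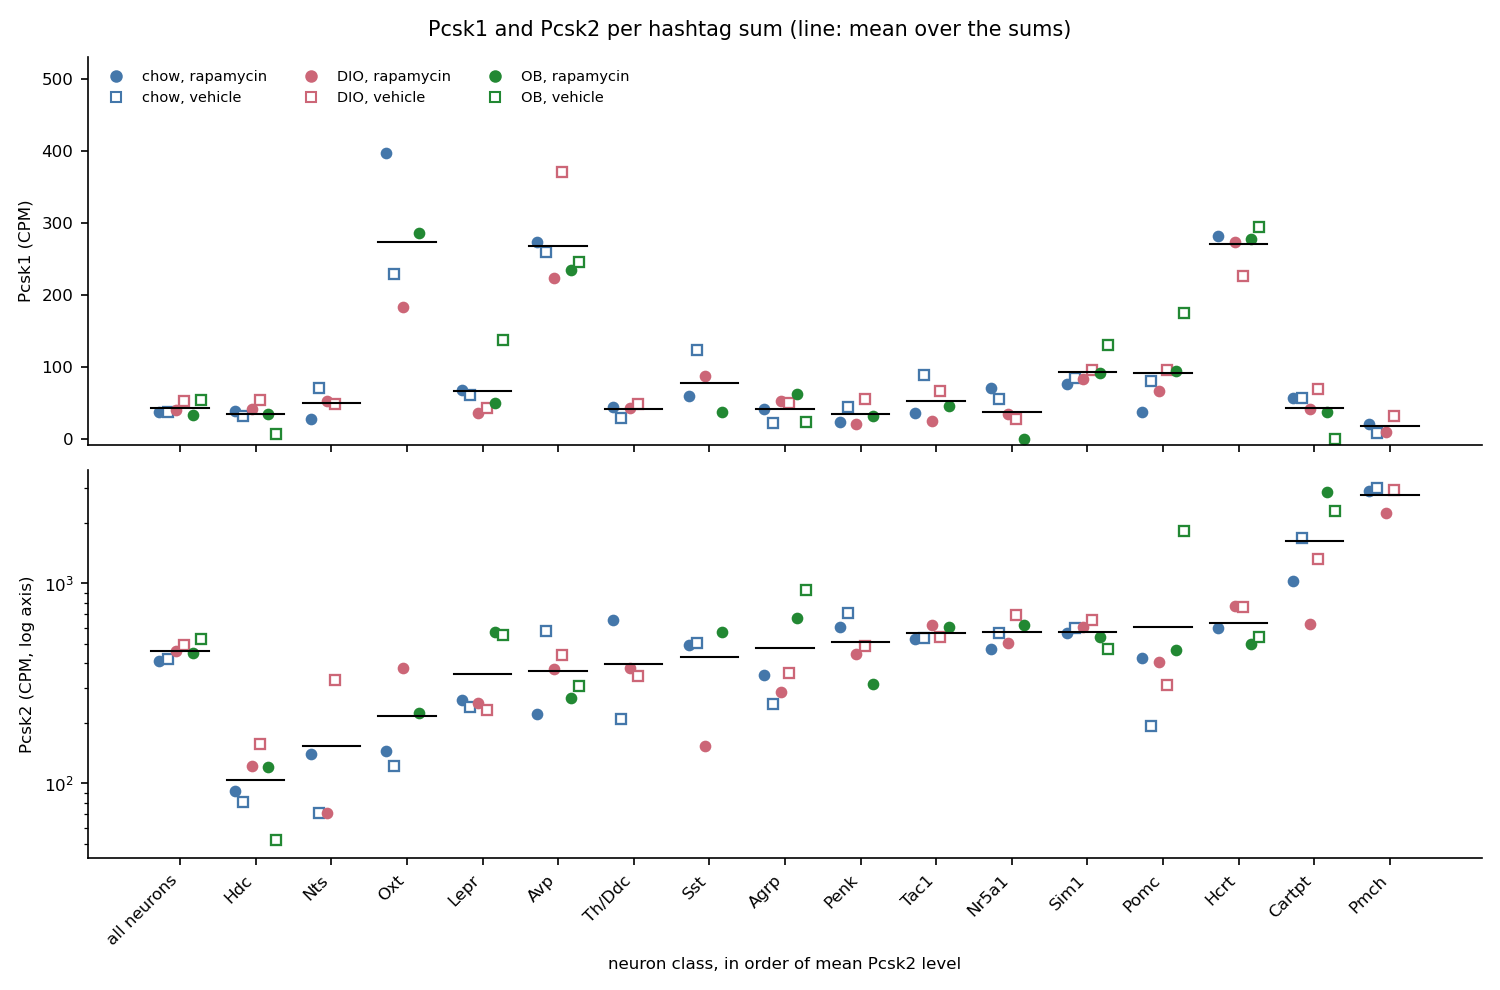
Pcsk1 and Pcsk2 levels (CPM) in each hashtag sum for all neurons and the 16 classes, 1 point per sum with a line at the mean, and a log axis for Pcsk2. Oxt, Avp and Hcrt points for Pcsk1 all lie between 184 and 396 CPM, and Pmch points for Pcsk2 between 2239 and 3008.

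The share of convertase UMIs that were Pcsk1 gathers both patterns. It was 8.46% in all neurons (6.96 to 9.60 over the 6 sums), 0.63% in Pmch and 3.51% in Cartpt nuclei. Sim1 nuclei were at 14.2%, Pomc at 16.8%, Hdc at 24.2%, Hcrt at 30.4% and Nts at 30.6%. Avp nuclei reached 43.5% (31.0 to 55.1) and Oxt nuclei 56.8% (32.7 to 73.2). The Avp and Oxt ranges overlap, so their order is not resolved. The Hdc and Nts shares go with low Pcsk2 and not with high Pcsk1, since Pcsk1 passed the test in neither class. Class means spanned 15.5-fold for Pcsk1 and 26.6-fold for Pcsk2, against 4.67-fold for Pcsk1n, 2.80-fold for Pam, 1.82-fold for Cpe and 1.72-fold for Scg5. Across the classes, the log levels of the convertases correlated at -0.10 (Pearson's r over 17 neuron groups that share libraries).

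Lepr neurons, the 369 nuclei with 3 or more UMIs of the leptin receptor, had Pcsk2 at 262 and 242 CPM in chow rapamycin and vehicle. DIO gave 253 and 232, and OB 574 and 551. Against other neurons the log2 ratio was -0.62 (SE 0.13, edgeR adjusted p = 0.0014, lower in 4 of 6 sums; 7.25% of genes called). The exceptions were both OB sums. The ratio was -0.92 without OB and -0.37 without DIO (edgeR adjusted p = 0.25), so the DIO pool decided the call. Agrp neurons, which make agouti-related peptide and neuropeptide Y, showed the same arrangement of pools: chow sums stood at 347 and 250 CPM, DIO sums at 288 and 355, and OB sums at 670 and 928. The 95% counting intervals were 559 to 796 and 663 to 1264 CPM in OB, against 250 to 469 for chow rapamycin and 194 to 595 for DIO vehicle, the highest of the other pools. Over the sums together the Agrp class did not differ by the test (log2 ratio -0.29, SE 0.18, edgeR adjusted p = 0.51; 6.46% of genes called). In Sim1 neurons the OB sums were at 542 and 470 CPM, below the 562 to 654 of chow and DIO. Of the Agrp nuclei 15.5% were also Lepr nuclei, and OB is 1 pool, so its levels cannot be told apart from its library, depth and counting version.

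Pomc neurons need their purity stated first. The Pomc class had 14 to 38 nuclei a sum after nuclei with a UMI of the pituitary factors Pitx1, Tbx19 or Pax7 were left out. In its OB vehicle sum (14 nuclei) Pomc was at 9548 CPM against 1021 to 1562 in the other sums, Cartpt was at 0 UMIs, and Cga, a pituitary hormone subunit, was at 146 CPM. The OB rapamycin sum (20 nuclei) had 1 Cartpt UMI, whereas chow and DIO sums held 157 to 228 CPM of Cartpt. Prdm12, a factor of arcuate Pomc neurons, was at 0 in both OB sums, but chow and DIO sums held only 2 to 10 UMIs of it. The arcuate marker Tbx3 was at 10.6 CPM in OB rapamycin (1 UMI) and 58.4 in OB vehicle (2 UMIs). Chow and DIO sums held 50.6 to 107 CPM of Tbx3. Lepr was at 106 CPM in OB rapamycin (10 UMIs) and 58.4 in OB vehicle (2 UMIs), against 146 to 228 in chow and DIO.

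Pcsk1 in Pomc nuclei was 37.7 and 80.1 CPM in chow rapamycin and vehicle, with 67.4 and 96.4 for DIO, then 95.1 and 175 for OB. It was higher than in other neurons in 5 of 6 sums, with a log2 ratio of 0.81 (SE 0.21, edgeR adjusted p = 0.0029; 8.64% of genes called). Without the OB pool the ratio was 0.65 (edgeR adjusted p = 0.039), and over nuclei with at least 1 UMI of the arcuate markers Tbx3, Nr5a2, Cartpt, Lepr or Prdm12 it was 0.75 (edgeR adjusted p = 0.023). It did not pass without DIO (edgeR adjusted p = 0.13), in nuclei of 1 class only (0.093) or after thinning (0.43).

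Pcsk2 in Pomc nuclei was 422 and 194 CPM for chow, 404 and 311 for DIO, then 465 and 1839 for OB. The last value is the OB vehicle sum, far above the rest. Over all sums the log2 ratio was -0.21 (SE 0.17, edgeR adjusted p = 0.60), but it was -0.55 without that sum (edgeR adjusted p = 6.1e-04), -0.65 without OB (1.1e-06) and -0.92 over nuclei with an arcuate marker UMI (1.0e-07). Pam moved less, at -0.39 over all sums (edgeR adjusted p = 0.16), -0.43 without the OB vehicle sum (0.0095), -0.40 over nuclei with an arcuate marker UMI (0.048) and -0.56 without OB (1.2e-05). Its level was 642 to 687 CPM in the OB sums and 392 to 455 in the others. Apart from leaving out OB, these alternatives were chosen after the data were seen. In the nuclei classed as pituitary, Pcsk2 was 2657 CPM in DIO rapamycin (31 nuclei) and 3171 in OB vehicle (37 nuclei), where Pomc was also high (6222 and 17336 CPM). In the other pituitary sums Pcsk2 was 105 (8 nuclei) and 30.2 (12 nuclei), with Pomc at 0 and 30.2.

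**Figure D3:**
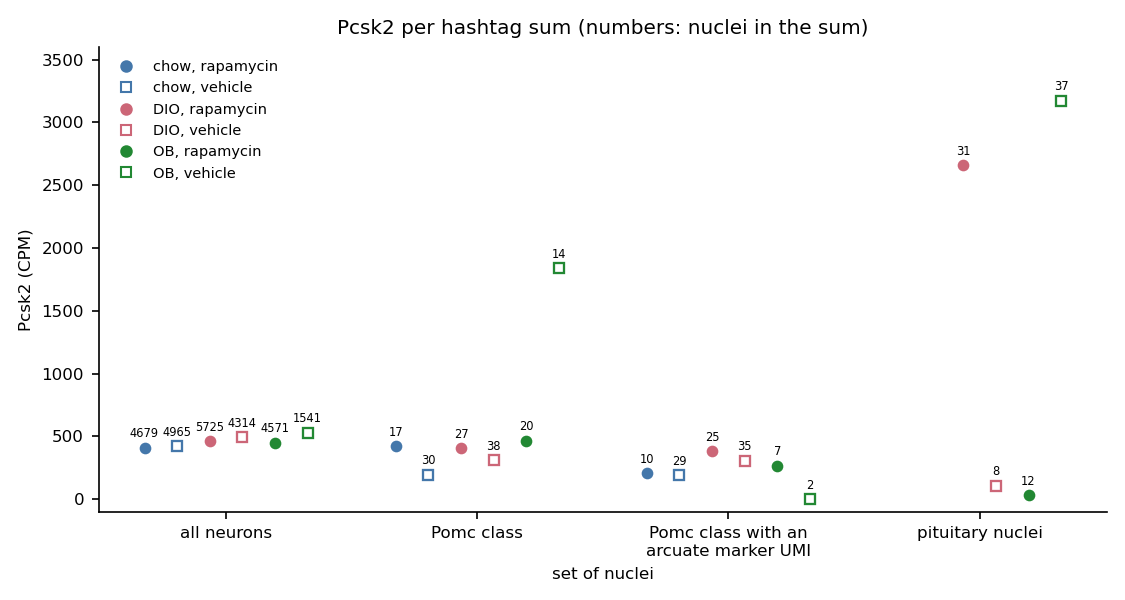
Pcsk2 level (CPM) in each hashtag sum of all neurons, the Pomc class, the Pomc nuclei with a UMI of an arcuate marker, and pituitary nuclei, with the number of nuclei above each point. The OB vehicle sum of the Pomc class lies at 1839 CPM and the other 5 between 194 and 465.

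The PC1/3 inhibitor Pcsk1n passed the test in none of the 16 classes. Nearest was Agrp, with 124 and 120 CPM in chow rapamycin and vehicle, 157 and 50.7 for DIO, 141 and 116 for OB, higher than other neurons of the same sum in 6 of 6. Its log2 ratio was 0.69 (SE 0.25, edgeR adjusted p = 0.079). With marker thresholds halved, a setting that added classes, 182 Agrp nuclei gave 0.77 (edgeR adjusted p = 7.0e-04), and 70 Gal (galanin) nuclei gave 1.26 (168 against 61.0 CPM, edgeR adjusted p = 3.9e-05, higher in 5 of 5 sums). Tac1 nuclei, marked by the substance P precursor, then gave 0.47 (edgeR adjusted p = 0.0029).

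Scg5, the PC2 chaperone, was lower in 3 classes and higher in none. Oxt nuclei had 114 to 122 CPM against 180 to 183 in other neurons, a log2 ratio of -0.78 (SE 0.23, edgeR adjusted p = 0.015). Pmch nuclei had 90.5 to 145 CPM against 180 to 185 (log2 ratio -0.52, SE 0.16, edgeR adjusted p = 0.012). Hdc nuclei had 79.1 to 170 CPM against 180 to 194 (log2 ratio -0.40, SE 0.10, edgeR adjusted p = 7.3e-04). The class and other neurons did not overlap in any of the 3. Low Scg5 went with low Pcsk2 in Oxt and Hdc nuclei and with high Pcsk2 in Pmch nuclei. Each of the 3 calls was lost without the chow pool. The Hdc call was kept in 11 of 12 alternatives. Oxt kept its call in 7 of 10 and also lost it in DESeq2 and with DESeq2 size factors. Pmch kept its call in 6 of 11 and also lost it in DESeq2, without DIO, in nuclei of 1 class only and after thinning.

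Cpe was the most even of the enzymes among neurons. Avp nuclei had 153 to 337 CPM against 156 to 203 (log2 ratio 0.50, SE 0.16, edgeR adjusted p = 0.015, higher in 4 of 6 sums), and Sim1 nuclei had 178 to 210 (log2 ratio 0.21, SE 0.05, edgeR adjusted p = 6.0e-04). Both calls were lost without the chow pool. The Avp call was kept in 6 of 10 alternatives, and was also lost in DESeq2, without the expression filter and after thinning. The Sim1 call was kept in 10 of 12 and was also lost without DIO.

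Pam, the amidating enzyme, was higher in 5 classes. In the Hcrt class it was 972 to 1341 CPM against 548 to 615 (log2 ratio 0.71, SE 0.19, edgeR adjusted p = 0.0026), and in the Oxt class 857 to 1222 against 549 to 563 (log2 ratio 0.74, SE 0.14, edgeR adjusted p = 1.4e-05). Lepr nuclei held 684 to 1056 CPM against 544 to 612 (log2 ratio 0.53, SE 0.09, edgeR adjusted p = 1.7e-04). Cartpt and Pmch nuclei also passed, at 0.49 and 0.36. The ranges of Hcrt, Oxt, Lepr and Cartpt nuclei did not overlap those of other neurons. Pam was lower in Penk nuclei (proenkephalin), with 316 to 499 CPM against 551 to 582 (log2 ratio -0.69, SE 0.17, edgeR adjusted p = 0.012; 0.919% of genes called), and slightly lower in Hdc nuclei (-0.19). The Lepr call was the steadiest, lost in 1 of 12 alternatives, without DIO (edgeR adjusted p = 0.054). The Hcrt and Oxt calls were lost without the chow pool and after thinning, and Hcrt also without DIO. Cartpt and Pmch lost the call in 5 of 12 and 5 of 11 alternatives, without chow, without DIO and after thinning among them. Penk lost it in 5 of 11, with any pool left out among them, and Hdc in 7 of 12.

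No member passed in the Sst, Tac1, Nr5a1 or Th/Ddc classes, where 1.53%, 1.03%, 3.78% and 3% of all genes did. Halving the thresholds gave 22 fits in which 41 of 132 member tests passed, 28 higher and 13 lower (31.1%). Among all genes in those fits 8.72% passed, 3.7% higher and 5.03% lower. The added classes included Pdyn (prodynorphin, 45 nuclei) with Pcsk1 at 225 against 40.8 CPM (log2 ratio 1.998, SE 0.29, edgeR adjusted p = 3.0e-09) and Trh (thyrotropin-releasing hormone, 42 nuclei) with Pcsk2 at 952 against 434 CPM (log2 ratio 0.88, SE 0.17, edgeR adjusted p = 4.8e-05). Of these Pdyn nuclei 20 (44.4%) were also in the Avp, Hcrt or Sim1 classes, and 21 of the Trh nuclei (50%) were Sim1 nuclei. Ventromedial type neurons marked by Nr5a1 (430 nuclei) then had more Pam (0.53) and Pcsk2 (0.41) and less Scg5 (-0.31). Mammillary type neurons marked by Foxb1 had more Pam (0.37) and Pcsk2 (0.38).

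**Figure D4:**
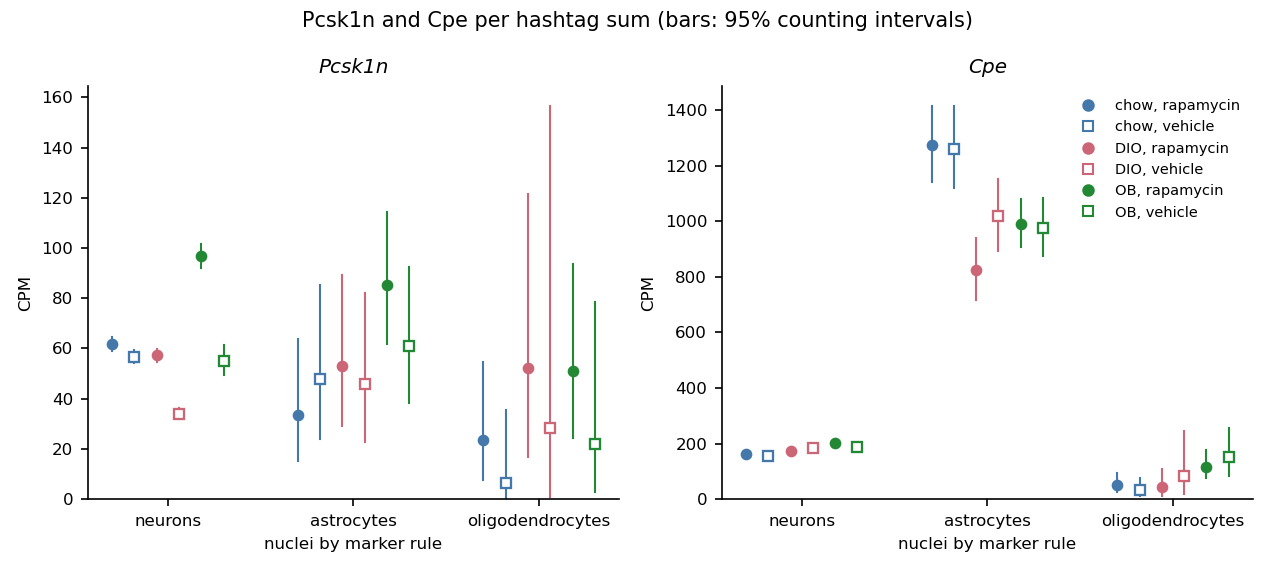
Levels (CPM) of Pcsk1n and Cpe in neurons, astrocytes and oligodendrocytes, as classed by markers, with 1 point per hashtag sum and 95% counting intervals. Cpe in astrocytes lies at 824 to 1274 CPM in the 6 sums, above the 156 to 203 CPM of neurons, while astrocyte and neuron points overlap for Pcsk1n.

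Outside neurons, Cpe was highest in astrocytes. Their nuclei held 824 to 1274 CPM (mean 1057 ± 177, n = 6 sums), and tanycytes or ependymal cells 303 to 380 over 4 sums, against 156 to 203 in neurons. Among chow nuclei with 2000 or more UMIs, thinned to 2000, 89.2% of astrocytes had a Cpe UMI against 26.8% of neurons. Over all chow nuclei before thinning the shares were 86.8% and 58.8% (medians of 2118.5 and 5978 UMIs). Oligodendrocytes averaged 79.8 CPM. Pcsk1 was the member nearest to neurons alone: 0 to 5.56 CPM in astrocytes, and in chow 0 of 130 thinned astrocytes had a UMI (exact interval 0 to 2.80%) against 5.86% of neurons. Pcsk2 averaged 72.2 CPM in astrocytes and 122 in oligodendrocytes.

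Pcsk1n behaved differently. Astrocyte sums ranged from 33.5 to 85.2 CPM, overlapping the 34.1 to 96.8 of neurons, and oligodendrocyte sums from 6.36 to 52.1. At equal depth, 11.2% of chow neurons and 6.15% of chow astrocytes had a Pcsk1n UMI (exact interval of the latter 2.69 to 11.8%). The pairs were 9.50% and 11.3% in DIO and 14.0% and 16.98% in OB, so by this measure a neuronal share above the astrocyte share was not detectable. Of oligodendrocytes at that depth, 5.32% in chow (94 nuclei), 3.03% in DIO (33 nuclei) and 3.70% in OB (108 nuclei) had a Pcsk1n UMI. Their exact interval lay below the neuronal share in OB (1.02 to 9.21%) and included it in chow and DIO. Free RNA in the droplets would give all cell types a like low share, and its part in the Pcsk1n values was not tested.

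Rapamycin was compared with vehicle over the 3 pools by edgeR, blocking on pool. In all neurons 83 of 17332 genes passed (0.479%; 20 higher, 63 lower), among them Pcsk1n and Pcsk1. Pcsk1n was 61.8 CPM with rapamycin and 56.7 with vehicle in chow mice. It was 57.2 against 34.1 in DIO mice and 96.8 against 55.1 in OB mice, higher with rapamycin in each pool. Its log2 ratio was 0.53 (SE 0.06, edgeR adjusted p = 2.5e-14). Pcsk1 was 38.3 against 37.8 CPM in chow mice, 40.7 against 52.2 in DIO mice and 33.7 against 53.8 in OB mice. Its log2 ratio was -0.30 (SE 0.06, edgeR adjusted p = 0.0023), near equal in chow and lower with rapamycin in both obese pools. The other members did not pass: Pcsk2 was at -0.12 (edgeR adjusted p = 0.80), Cpe at 0.03, Pam at -0.07 and Scg5 at -0.04.

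**Figure D5:**
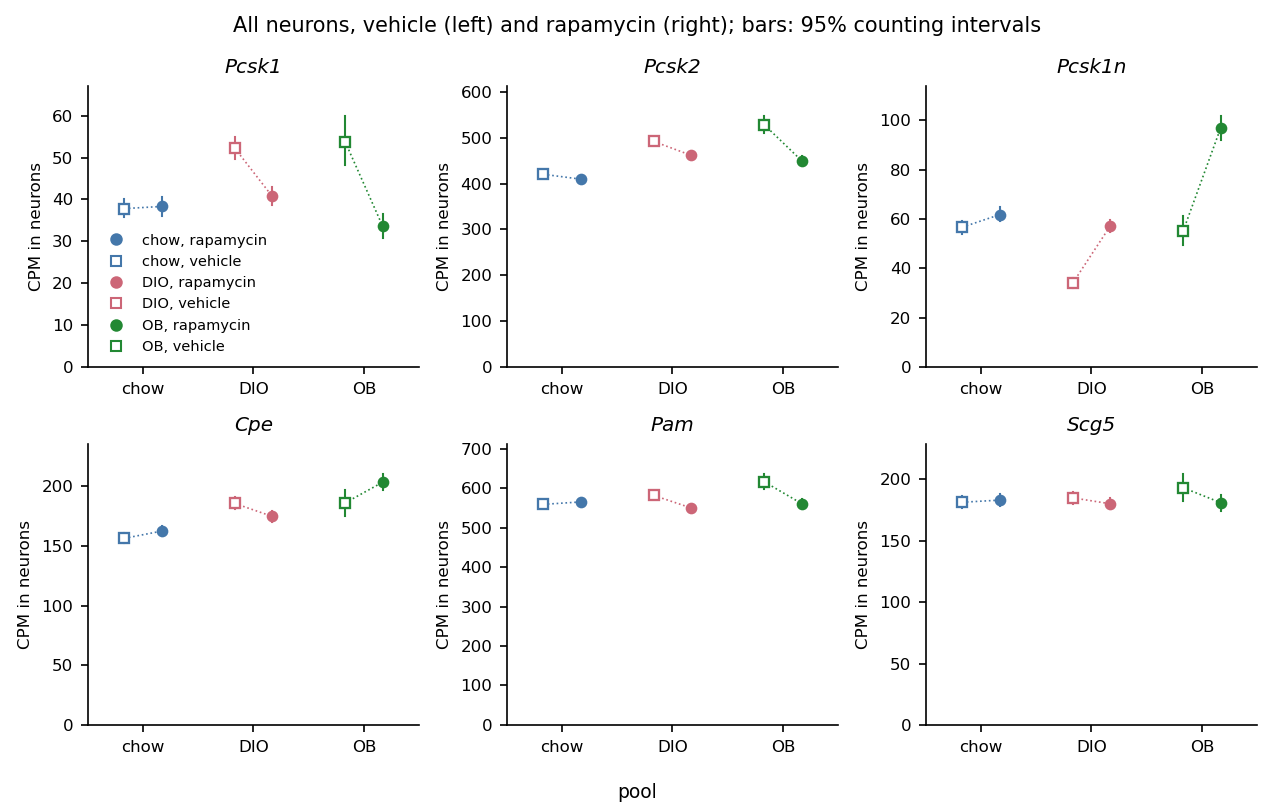
Levels (CPM) of the 6 genes in all neurons of each pool, rapamycin and vehicle side by side, with 95% counting intervals. Pcsk1n is above vehicle in each pool, by most in DIO (57.2 against 34.1 CPM) and OB (96.8 against 55.1), and Pcsk1 is below vehicle in DIO and OB.

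The treatment calls depended on the tool, the block and the pools. DESeq2 called 0 genes in all (332 had an unadjusted p under 0.05, against 1012 in edgeR). For Pcsk1n it gave 0.56 with an SE of 0.20, against an SE of 0.06 in edgeR, and an unadjusted DESeq2 p of 0.0065. Without the pool block 0 genes passed. Without the DIO pool Pcsk1n was 0.40 (edgeR adjusted p = 0.9998), without OB 0.43 (edgeR adjusted p = 5.5e-04) and without chow 0.75. Pcsk1 passed only with DIO and OB both kept, at -0.17 without OB, and was -0.22 (edgeR adjusted p = 0.19) with hashtags called by tag ratio. Without nuclei that held a pituitary marker UMI or 3 or more Pomc UMIs, Pcsk1n was 0.52 and Pcsk1 -0.29 (edgeR adjusted p = 0.024).

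Within pools each treatment is 1 sum, so ratios carry exact 95% counting intervals and no test. Pcsk1n changed by a log2 ratio of 0.12 in chow (0.03 to 0.22), by 0.75 in DIO (0.64 to 0.86) and by 0.81 in OB (0.65 to 0.99). The central 90% of genes with at least 50 UMIs over both sums lay between -0.29 and 0.41 in DIO and between -0.42 and 0.39 in OB. Pcsk1 was at 0.02 in chow (-0.10 to 0.14), at -0.36 in DIO (-0.46 to -0.25) and at -0.68 in OB (-0.87 to -0.48). Counting intervals excluded 0 for 12 of the 18 member ratios. Among all genes with at least 50 UMIs over both sums they did so for 15.2% in chow, 31.8% in DIO and 16.4% in OB. The members held 335 UMIs or more in every sum, and more UMIs give narrower intervals. These shares are not matched for depth, so the member count cannot be read against them. Pcsk2 in OB was -0.23, but 0.09 once nuclei with a pituitary marker UMI or 3 or more Pomc UMIs were left out. Summed ribosomal protein CPM moved with Pcsk1n in part, at 2013 with rapamycin against 2071 with vehicle (chow), 1658 against 1450 (DIO) and 2458 against 2290 (OB). Mitochondrially encoded genes were 65.2 and 81.1 CPM in DIO and 166 and 214 in OB. Their part in the member ratios was not tested.

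The fitted ratio of Pcsk1n with rapamycin had the same sign in the broad neuron sets. It was 0.53 in neurons of neither transmitter set (edgeR adjusted p = 2.9e-06; 0.194% of genes called), 0.46 in GABAergic (edgeR adjusted p = 0.098; 0% of genes) and 0.44 in glutamatergic neurons (edgeR adjusted p = 0.79; 0.0224%), where only the first passed in edgeR. Chow glutamatergic neurons went the other way, with 55.5 CPM against 58.2 with vehicle (log2 ratio -0.07, counting interval -0.33 to 0.20). Among the 4 classes large enough for this fit, Pcsk1n was 0.63 in Sim1 (edgeR adjusted p = 0.092; 0.119% of genes called), 0.78 in Pomc (0%), 0.52 in Lepr (0%) and 0.02 in Hdc nuclei (0.0178%), and none passed. Whether these differ from each other was not tested. In astrocytes and oligodendrocytes together, Pcsk1n was 29.1 against 30.9 CPM (chow), 52.9 against 43.6 (DIO) and 75.7 against 53.1 (OB), with every counting interval including 0.

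Within single classes, 25 of 228 member intervals excluded 0 (10 higher and 15 lower with rapamycin). Of the 120 that rest on at least 50 UMIs, 19 did (15.8%), against 12.5% of all gene intervals with that many UMIs, a share near the background. Both directions occurred for Pcsk2. Pcsk2 in Cartpt nuclei was lower with rapamycin in chow (1030 against 1695 CPM, log2 ratio -0.72) and in DIO (625.5 against 1329, -1.09), and in OB it was 2855 against 2302 with 6 nuclei each. The Cartpt class shares nuclei with the Pmch class, which is high in Pcsk2. Pmch nuclei numbered 13 with rapamycin and 23 with vehicle in chow, and 20 and 22 in DIO. Within Pmch nuclei the chow ratio of Pcsk2 was -0.05. The part of Pmch nuclei in the Cartpt ratios was not tested. In Avp nuclei Pcsk2 was lower in chow (222 against 577 CPM, -1.38), and in DIO its interval included 0 (-0.99 to 0.60) and the ratio was 0.39 with hashtags called by tag ratio. Pcsk2 was higher with rapamycin in chow Th/Ddc nuclei (659 against 209 CPM, 1.65) and chow Pomc nuclei (422 against 194 CPM, 1.121). In the chow Pomc nuclei with an arcuate marker UMI the levels were near equal. There Pcsk2 was 207 CPM with rapamycin (10 nuclei, 17 UMIs) and 193 with vehicle (29 nuclei, 44 UMIs). Pcsk1n in Sim1 nuclei was 58.7 against 24.9 CPM in DIO (log2 ratio 1.24).

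Pools were set against chow within each treatment, again with counting intervals and no test, and the comparisons of a treatment share their chow sum. With vehicle, Pcsk1 was higher in both obese pools, by 0.47 in DIO (52.2 against 37.8 CPM) and 0.51 in OB (53.8 against 37.8). With rapamycin the same ratios were 0.09 and -0.19. Pcsk1n with vehicle was -0.74 in DIO (34.1 against 56.7 CPM) and -0.04 in OB, and with rapamycin -0.11 and 0.65. Cpe was 0.11 to 0.32 above chow in all 4 comparisons, and Pam and Scg5 lay between -0.04 and 0.14. Pcsk2 was 0.14 to 0.33 above chow, but the highest of these, OB vehicle, was -0.0066 without nuclei with pituitary marker or Pomc UMIs. Intervals excluded 0 for 18 of 24 ratios. Among all genes with at least 50 UMIs over both sums they did so for 51.4% in DIO rapamycin and 58.2% in DIO vehicle. In OB the shares were 47.8% with rapamycin and 40.3% with vehicle. These shares are again not matched to the depth of the members. The central 90% of those gene ratios ran from -0.72 to 0.66 in DIO vehicle and from -0.49 to 0.72 in DIO rapamycin. In OB it ran from -0.64 to 0.83 with vehicle and from -0.51 to 0.81 with rapamycin. The only member ratio outside these ranges was that of Pcsk1n in DIO vehicle. Group, library, depth and Cell Ranger version cannot be told apart here.

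Other genes of the peptide pathway were counted over the same 16 class fits. Granins and dense core granule genes passed in 48 of 192 tests, 33 higher and 15 lower (25%), near the share of the 6 members. The largest ratio was that of Cadps2, which primes granules for release, lower in Hcrt nuclei (-4.36). Scg2, a granin precursor, was at 516 to 1555 CPM in Hcrt nuclei against 54.7 to 98.0 (log2 ratio 3.47, edgeR adjusted p = 1.0e-76). It was also higher in Sst nuclei (1.15) and lower in Oxt (-2.87), Hdc (-2.85), Pmch (-1.70), Avp (-1.30) and Sim1 nuclei (-0.33). Vgf was higher in Nts (2.72), Hcrt (2.61), Cartpt (2.10), Pomc (1.85) and Lepr nuclei (1.69). Chga was lower in Oxt (-2.09), Hdc (-1.61), Avp (-1.53) and Sim1 nuclei (-0.34), and higher in Nr5a1 (1.20) and Pmch nuclei (0.68). Other convertases and maturation peptidases were called in 5 tests higher and 13 lower of 153 (11.8%). Among them the convertases Pcsk6 and Pcsk5 went in opposite directions in Hcrt nuclei, Pcsk6 at 106 to 222 CPM against 14.4 to 19.0 (log2 ratio 2.95) and Pcsk5 at 0 to 46.9 against 94.6 to 112 (-3.13). They also did so in Th/Ddc nuclei (1.43 and -1.91) and, reversed, in Sim1 nuclei (-0.86 and 0.55). Pcsk5 was lower in Hdc (-1.87), Avp (-1.63), Oxt (-1.48), Agrp (-1.46), Penk (-1.43) and Lepr nuclei (-0.88) as well.

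Modification and cofactor genes passed 5 times of 96, all higher (5.21%). The one with the largest ratio was Atp7a, the transporter that supplies copper to Pam, at 98.0 to 464 CPM in Agrp nuclei against 27.0 to 33.6 (log2 ratio 2.72, edgeR adjusted p = 1.1e-30), while Pam itself did not pass there (-0.27). Peptide-degrading enzymes passed 7 times higher and 21 lower of 176 (15.9%). Most of the lower calls were those of a single gene, Trhde, the thyrotropin-releasing hormone degrading enzyme. It was at 0 to 39.1 CPM in Hcrt nuclei against 124 to 146. Trhde was also lower in Th/Ddc (-3.09), Agrp (-2.78), Hdc (-2.59), Pomc, Oxt, Avp, Nr5a1, Sst, Lepr, Penk, Nts and Cartpt nuclei, and higher in Pmch nuclei (0.61). With rapamycin in all neurons, 2 of 12 granule genes passed, both higher (Scg2 0.32, edgeR adjusted p = 8.3e-05, and Chgb 0.29, edgeR adjusted p = 0.026), and 1 of 11 degrading enzymes, Ide (-0.22, edgeR adjusted p = 0.040). The median ratio of the 6 members ran over the 16 classes from -0.26 in Hdc nuclei (all genes -0.06) to 0.36 in Avp nuclei (-0.16). Next to Avp came Tac1 at 0.20 (-0.09), where no member passed, Sim1 at 0.15 (0.0049) and Hcrt at 0.11 (-0.32). Next to Hdc came Pmch at -0.25 (-0.14).

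Genes with the most similar pattern over 17 neuron groups (Pearson's r of log2(CPM + 10), 10672 genes, groups sharing libraries) are given as a description. For Pcsk1 they were Clcn5 (0.89), Rfx2 (0.88) and Aig1 (0.87), for Pcsk2 Hs6st3 (0.84), Adgrv1 (0.81) and Ccbe1 (0.81), and for Pcsk1n Preb (0.71), P2ry14 (0.70) and Sucla2 (0.70). Cpe was nearest to Tmem186 (0.86), Pam to Mrpl33 (0.80) and Scg5 to Ttll7 (0.82). Of the 18 nearest genes, 14 were shared with a pseudocount of 50.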

How the data were processed

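The authors' deposited values are whole UMI counts for genes and for hashtags in each called barcode, not normalized. Cell Ranger 6.0.0 (chow, DIO) or 7.0.1 (OB) wrote them per the file headers, on mm10 per the submitters' processing notes, which give 6.0.0 for each pool. Whether intronic reads were counted is not given in the sources used here. Kept nuclei had 500 or more UMIs, 300 or more genes and at most 5% mitochondrial UMIs. Hashtags were called with HTODemux (Seurat 5.3.0, R 4.3.3) at a quantile of 0.99. Doublets between hashtags were removed, and those within 1 hashtag cannot be seen.

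Counts were summed per hashtag and nucleus set and tested with edgeR 4.0.16 (quasi-likelihood, TMM, filterByExpr, Benjamini-Hochberg adjustment over all genes of a fit). DESeq2 1.42.0 was an alternative. CPM is the count per 1000000 UMIs of the sum, ratios within or between pools carry exact 95% counting intervals, and a count of 0 allows up to 3 UMIs (0.0879 to 0.482 CPM in neurons). On simulated data, edgeR recovered 52% of 2-fold and 93% of 4-fold changes in the Avp class (12569 genes) and 100% of both with rapamycin in all neurons (17332 genes). False calls made up 5.84% of calls for Avp, 8.28% for Pmch and 2.91% for rapamycin. The simulation gave all genes a common dispersion and no pool differences, and changed only better expressed genes. It is therefore an easier setting than the real pools, and recovery in the real data is not known from it. Named genes were the 6 members, up to 4 called genes per pathway list with the largest ratio, and the 3 genes nearest to each member in pattern. A Kiss1/Tac2 class could not be built from the 27514 shared identifiers. The members and lists were chosen with earlier results of these data known. Python 3.11.15 with scipy 1.17.1 and pandas 2.3.3 did the remaining steps.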

Additional observations from a re-analysis of the deposited data

Results flagged for a closer look

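Single sums stood far from the others of their class in 9 of 96 groups of 4 to 6 sums, given as log2 ratios of class to other neurons after adding 10 CPM to both. Chance marks about 1 in 20 such groups. Of the 9, 5 lie in the OB vehicle sum and rest on 0 or 1 UMI, so their ratios depend on the added 10 CPM. There Pcsk1 was -2.68 in Cartpt nuclei (0 UMIs, 1.08 at the level of other neurons; other sums 0.04 to 0.49) and -1.90 in Hdc nuclei (1 UMI, 7.41 at that level; others -0.18 to 0.06). Pcsk1n was -2.71 in Hcrt nuclei (0 UMIs, 1.13 at that level; others -0.10 to 0.97), Scg5 -1.79 in Hcrt nuclei (1 UMI, 3.95 at that level; others -0.11 to 0.28) and Cpe -1.71 in Cartpt nuclei (1 UMI, 3.72 at that level; others -0.42 to 0.21). That sum held 6 Cartpt and 5 Hcrt nuclei. In the OB rapamycin sum, Pam was 1.30 in Cartpt nuclei (others 0.42 to 0.62) and Scg5 0.91 in Penk nuclei (others -0.26 to 0.02). Pcsk2 in Sst nuclei was -1.53 in DIO rapamycin (7 nuclei; others 0.26 to 0.34), and Scg5 in Hdc nuclei was -1.12 in chow rapamycin (others -0.37 to -0.14). For Cpe in all neurons, rapamycin against vehicle was -0.087 in DIO and 0.13 in OB, with counting intervals on opposite sides of 0, and the difference between the pools was not tested.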

How the results depend on the processing

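Of 462 repeats of 71 single-gene results, 390 kept direction and call, 66 kept direction and lost the call, 4 moved and 2 turned. The count of member calls over the classes was 26, ranged from 13 (chow left out) to 26 (OB left out) when a pool was left out, and was 9 with marker thresholds doubled, where fewer classes could be fitted, 15 in nuclei of 1 class only and 17 after thinning. Pcsk1 in Avp, Hcrt, Oxt and Sim1 nuclei and Pcsk2 in Cartpt, Hdc, Nts, Pmch and Sim1 nuclei passed under every alternative that could be fitted. With rapamycin, 2 members passed, 0 in DESeq2 and without the pool block, 1 with hashtags called by tag ratio, and 0 to 2 when a pool was left out. The 83 genes called became 0 in DESeq2 and without the block, 36 with the tag ratio, 47 without nuclei with pituitary or Pomc UMIs, and 1 (DIO left out) to 188 (chow left out). In OB neurons with the tag ratio, the rapamycin ratio of Pcsk1 was -0.35 and that of Pcsk2 -0.17. Without nuclei with pituitary or Pomc UMIs, Pcsk2 turned to 0.094 with rapamycin in OB and to -0.0066 in OB against chow vehicle. TMM scaling gave OB against chow rapamycin ratios of 0.09 for Pcsk2 and -0.06 for Pam. Where no cause is stated, the cause was not tested. The labels carry no replicate numbers, so samples were paired only by pool (treatment) and by sum (classes). Depth limits small classes, such as the 14 Pcsk1 UMIs of Pmch nuclei.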
